A study of Homo sapiens with 8 samples.

Results

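The TET dioxygenases are enzymes that oxidise 5-methylcytosine in DNA, and the human family has the members TET1, TET2 and TET3. The rule took every transcript cluster of the array whose platform symbol is one of these names, and it found 3 of the 53617 transcript clusters with values. A transcript cluster is the set of probes that the array summarises into 1 value. TET1 was read by clusters 16705381 and 16715048 and TET2 by cluster 16969414, while TET3 had 0 named clusters and was not analysed here. All 3 clusters passed the filter on low signal.

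The cells were HEK293T, a line from human embryonic kidney into which the large T antigen of SV40 was put, and each of the 8 arrays held RNA of 1 sample. Knockdown cells carried a lentiviral shRNA, with 1 array for the clone shTET1#1, 1 for the clone shTET1#2 and 1 for a control shRNA clone. Plasmid cells were sorted by fluorescence 3 days after they were given wild-type TET1-CD or TET1-FL, mutant mTET1-CD or mTET1-FL, or the empty vector, with 1 array each. The prefix m marks the catalytically mutant protein, and CD and FL are the labels' names for the constructs. The labels name neither the promoter of the plasmids nor the part of TET1 in the constructs, and each shRNA line is a single clone. Clones and plasmid cells therefore differ in more than their TET1 supply.

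TET enzymes use iron, oxygen and 2-oxoglutarate to turn 5-methylcytosine into 5-hydroxymethylcytosine and then into 5-formylcytosine and 5-carboxylcytosine. The last products are cut out by the glycosylase TDG and replaced by plain cytosine through base excision repair. TET1 and TET3 carry a CXXC zinc finger that binds unmethylated CpG, whereas TET2 lacks one and has the separate gene CXXC4 nearby on its chromosome. TET1 is best known from embryonic stem and germ cells and TET2 from blood, where it is often mutated in leukaemia.

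The starts of the endogenous genes are shown because CpG pairs are where 5-methylcytosine, the substrate of these enzymes, is mostly found. Each line gives the 250 bases before the annotated start, 5′ to 3′ on the plus strand, from RefSeq on GRCh38.p14, with each CpG in capitals. Both measured genes matched, TET1 at chr10:68560087-68560336 and TET2 at chr4:105145625-105145874.
TET1: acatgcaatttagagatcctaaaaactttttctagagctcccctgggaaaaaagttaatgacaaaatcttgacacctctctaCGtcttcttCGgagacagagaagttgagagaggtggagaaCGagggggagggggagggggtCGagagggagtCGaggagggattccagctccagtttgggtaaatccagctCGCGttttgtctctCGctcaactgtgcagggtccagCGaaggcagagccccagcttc
TET2: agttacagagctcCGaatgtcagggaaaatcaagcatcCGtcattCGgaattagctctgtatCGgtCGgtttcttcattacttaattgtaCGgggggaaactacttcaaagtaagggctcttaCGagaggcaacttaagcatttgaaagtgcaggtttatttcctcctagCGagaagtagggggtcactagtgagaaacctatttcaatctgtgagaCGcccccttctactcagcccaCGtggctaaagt
The pair CG, which reads the same on both strands, occurs 9 times in the TET1 stretch and 10 times in the TET2 stretch. Of 35116 RefSeq stretches of this length, 54.1% held at least 9 and 52.2% at least 10, and the median was 11. RefSeq lists 3 start windows for TET1 and 2 for TET2, and the one at the start of the gene is shown. The arrays read neither methylation nor the start that a transcript used.

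The median log2 signal per array was 5.47 to 5.55, and pairs of arrays had r of 0.932 to 0.988 over the 28946 clusters kept. No pair was identical. Of 7 genes listed as expressed in HEK293T, 4 had a named cluster (VIM, KRT8, KRT18 and PAX2), and all of these lay above the median on 8 of 8 arrays. Of 11 genes of other cell types, 3 had a named cluster (ALB, PECAM1 and DCN), and all of these lay below the median on 8 of 8 arrays.

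The first TET1 cluster, 16705381, had signal without any plasmid. Its log2 signal was 8.62 in shTET1#1 and 9.14 in shTET1#2, against 9.29 in the control shRNA clone. It was 10.42 with TET1-CD, 11.05 with mTET1-CD, 12.22 with TET1-FL and 12.47 with mTET1-FL, against 9.51 with the vector. The 4 plasmid arrays were above the other 4 without overlap, both FL arrays were above both CD arrays, and shTET1#1 was the lowest array. Of the 7 gaps between neighbours in this order, 4 were wider than 1 SD of a difference between 2 arrays, which the fit put at 0.31. The gaps that were not separate shTET1#2 from the control shRNA (0.15), the control shRNA from the vector (0.21) and TET1-FL from mTET1-FL (0.25).

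The second TET1 cluster, 16715048, had a single step between arrays. Its log2 signal was 5.27 in shTET1#1 and 6.20 in shTET1#2, against 5.71 in the control shRNA clone. It was 12.10 with TET1-CD, 12.03 with mTET1-CD, 11.80 with TET1-FL and 11.91 with mTET1-FL, against 5.86 with the vector. The 4 plasmid arrays stood together, far above the other 4, which lay near the array medians where background may limit the value. Of its 7 gaps, 1 was wider than 1 SD of a difference (0.46), and this was the gap of 5.60 between shTET1#2 and TET1-FL. The SD draws in part on the 2 shTET1 clones, which are among the arrays near the median.

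TET2 was expressed on all 8 arrays, between 7.82 and 8.22. Its log2 signal was 8.04 in shTET1#1 and 7.82 in shTET1#2, against 8.04 in the control shRNA clone. It was 8.22 with TET1-CD, 8.12 with mTET1-CD, 8.22 with TET1-FL and 8.12 with mTET1-FL, against 7.85 with the vector. The 4 plasmid arrays were the highest and shTET1#2 and the vector the lowest. Between neighbours in this order, 0 of the 7 gaps was wider than 1 SD of a difference (0.19). Such gaps do not measure the whole spread, since each plasmid array stood 0.27 to 0.38 above the vector, more than that SD. RefSeq also places the antisense RNA TET2-AS1 over part of TET2, and whether the cluster reads it was not analysed here.

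**Figure D1:**
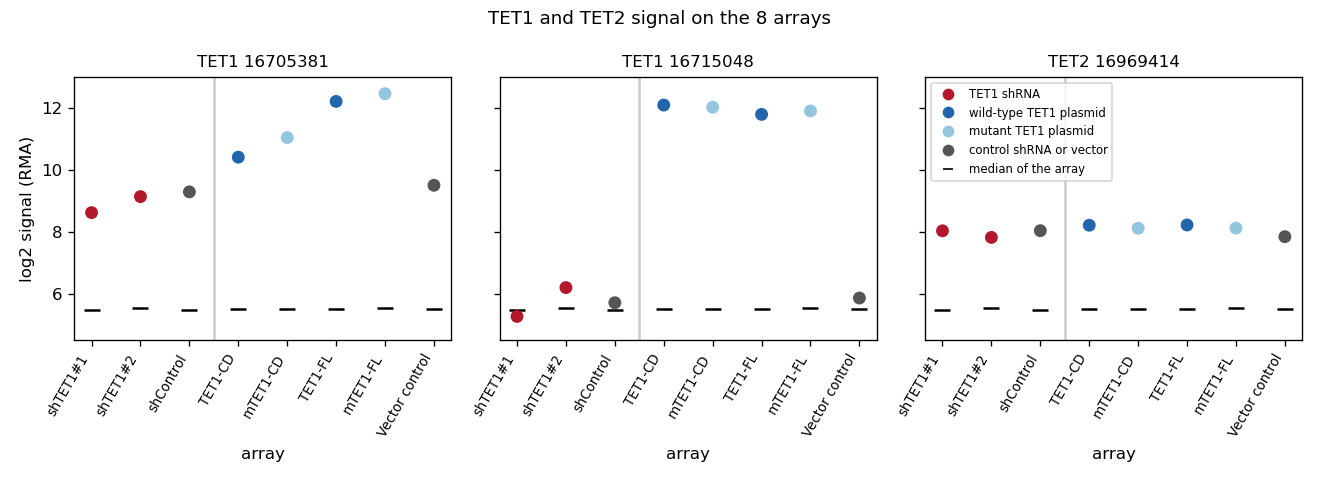
Log2 signal (y axis) of each TET cluster on each of the 8 arrays (x axis, 1 point an array), with the median of each array as a dash. TET1 16715048 is at 11.80 to 12.10 on the 4 plasmid arrays and at 5.27 to 6.20 on the other arrays, while TET2 stays between 7.82 and 8.22 on all of them.

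The clusters also differ in their place in the platform's numbering. Among the 20 named clusters nearest in number to 16705381, 15 belong to genes that RefSeq puts on the plus strand and 0 to genes on the minus strand. Around 16715048 the counts are 1 on the plus strand and 16 on the minus strand, and around the TET2 cluster they are 16 and 0. The others had no strand in the promoter table. TET1 and TET2 themselves lie on the plus strand. The strand and exons that each cluster reads were not analysed here.

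The plasmid arrays were compared with the vector to see how much TET1 signal each plasmid added. Cluster 16715048 was 75.4-fold higher with TET1-CD, 71.8-fold with mTET1-CD, 61.2-fold with TET1-FL and 66.1-fold with mTET1-FL than with the vector. These fold sizes are uncertain, since the vector signal (5.86) was close to the median of its array (5.52) and may be limited by background. Which strand 16715048 reads was not analysed here. TET1 lies on the plus strand, while 16 of the 20 named clusters nearest in number belong to genes on the minus strand. In each of these 4 differences 16715048 ranked 1 from the top of the 28946 clusters. Cluster 16705381 was 1.88-fold higher with TET1-CD, 2.91-fold with mTET1-CD, 6.55-fold with TET1-FL and 7.78-fold with mTET1-FL, at ranks 978, 99, 8 and 4. At least 2-fold higher than with the vector were 2.48%, 1.73%, 3.1% and 2.63% of all clusters in these 4 comparisons. TET2 was 1.29-fold, 1.21-fold, 1.3-fold and 1.21-fold higher in the same order of plasmids, and between 16.6% and 22.4% of clusters were at least as high.

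At least 2-fold above the vector on all 4 plasmid arrays were 0.553% of the clusters, and 16715048 was among them. Cluster 16705381 was not, because TET1-CD stood 0.91 above the vector on the log2 scale. Being above the vector on all 4 plasmid arrays, without a limit of size, held for all 3 TET clusters and for 27.2% of all clusters. Being above the vector and the 3 shRNA arrays together also held for all 3, and for 7.89% of all clusters. For TET2 the gap between these sets of arrays was 0.079, between 8.12 with mTET1-CD and 8.04 in the control shRNA clone.

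A fit of all 8 arrays in limma gave the mean of the 4 plasmids minus the vector. It was 6.10 ± 0.36 (SE) for TET1 16715048, with a 95% interval of 5.16 to 7.03 and a limma adjusted p of 0.162. It was 2.03 ± 0.25 for TET1 16705381 (1.39 to 2.67), with the same limma adjusted p of 0.162. It was 0.32 ± 0.15 for TET2 (-0.070 to 0.72), with a limma adjusted p of 0.398. None of the 28946 clusters passed the threshold of 0.05 in this contrast (0%), and 4352 (15%) had an unadjusted limma p under 0.05. The fit has 2 residual degrees of freedom, and TET1 16715048 held the smallest unadjusted p (1.59e-05) of all clusters.

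The call of TET1 16715048 differed between settings, and the cause was not tested. With 1 cluster per gene symbol it passed (limma adjusted p = 0.0428), as it did with each array centred on its median (0.0477). Its difference was 6.10 and 6.09 in these settings. Both TET1 clusters had a value in the setting of 1 cluster per gene symbol, so TET1 itself was not held to 1 cluster there. With the control shRNA as baseline TET2 stood at 0.13, in place of 0.32, without a call in either setting.

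**Figure D2:**
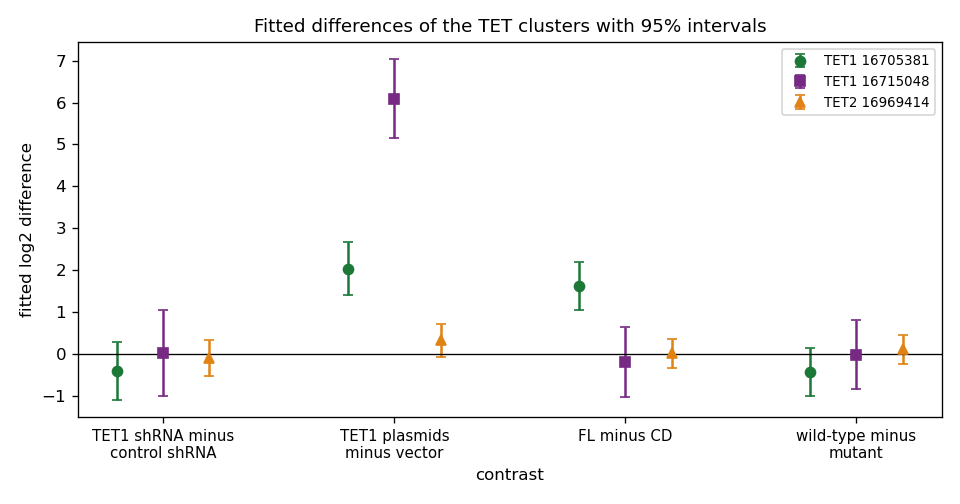
Fitted log2 difference (y axis) of each TET cluster in the 4 contrasts (x axis), with bars for the 95% interval of the limma fit. The intervals exclude 0 for both TET1 clusters with plasmids and for TET1 16705381 in FL minus CD, before any adjustment for the number of clusters.

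The constructs were set against each other because FL and CD supply different forms of TET1. In cluster 16705381 TET1-FL was 3.49-fold above TET1-CD, and mTET1-FL was 2.67-fold above mTET1-CD, where 2.57% and 2.1% of all clusters were at least 2-fold higher. In 16715048 the log2 differences of these pairs were -0.30 and -0.12, and in TET2 they were 0.0092 and 0.0036. The TET1 clusters thus differed in sign, and a test of one against the other was not made.

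The fitted FL minus CD difference was 1.61 ± 0.22 (SE) for 16705381, with a 95% interval of 1.04 to 2.18 and a limma adjusted p of 0.129. Of all clusters, 0.259% had a difference at least as large in size. It was -0.21 ± 0.32 for 16715048 (-1.05 to 0.63) and 0.0064 ± 0.14 for TET2 (-0.35 to 0.36), with limma adjusted p of 0.854 and 0.993. None of the 28946 clusters passed in limma (0%), and 13.7% had an unadjusted p under 0.05. Both FL arrays lay above both CD arrays in 27.6% of clusters, 16705381 among them, and below them in 25.7%, 16715048 among them. The TET2 arrays of the constructs overlapped.

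Wild-type and mutant plasmids were compared to see whether TET levels differed with the catalytic activity of the supplied protein. The plasmids supply TET1 themselves. In the TET1 clusters an effect of catalytic activity therefore cannot be told apart from unequal amounts of plasmid. In cluster 16705381 the mutant array was the higher one within each construct, with a wild-type minus mutant difference of -0.63 with CD and -0.25 with FL. In 16715048 it was 0.071 with CD and -0.11 with FL. TET2 had 8.22 and 8.22 with the wild-type plasmids, against 8.12 and 8.12 with the mutants, and its difference was 0.097 with CD and 0.10 with FL. Both wild-type arrays of TET2 lay above both mutant arrays, as they did in 9.88% of all clusters.

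The fitted difference was -0.44 ± 0.22 (SE) for TET1 16705381 (95% interval -1.01 to 0.13), -0.020 ± 0.32 for TET1 16715048 (-0.86 to 0.82) and 0.10 ± 0.14 for TET2 (-0.25 to 0.45). The limma adjusted p was 1 for each. For 16705381, 3.08% of clusters had a difference at least as large in size. None of the 28946 clusters passed in limma (0%), and 567 (1.96%) had an unadjusted p under 0.05. These intervals include 0 and do not show that the supplied forms gave equal levels.

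The shRNA clones were compared with the control clone as a check of the knockdown. Cluster 16705381 was 1.59-fold lower in shTET1#1 and 1.11-fold lower in shTET1#2, and 3.11% and 35.3% of clusters were at least as low in these comparisons. For cluster 16715048 the log2 difference from the control was -0.44 in shTET1#1 and 0.49 in shTET1#2, but all 3 shRNA arrays lay near the array median, where background may limit the value, so it says little about the knockdown. Because 16705381 was only 1.11-fold lower there, the second clone is called the array labelled shTET1#2. None of these reached 2-fold, a size at which 0.905% of clusters were lower in shTET1#1, and 2.16% were in the array labelled shTET1#2. Both clones lay below the control in 16705381, as they did in 33.1% of clusters.

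The clones also differed from each other. In shTET1#1 minus the array labelled shTET1#2, cluster 16705381 stood at -0.52, 16715048 at -0.93 and TET2 at 0.21 on the log2 scale. For 16715048, 0.978% of clusters were at least as low in this difference. The TET2 difference from the control was -0.0040 for shTET1#1 and -0.22 for the array labelled shTET1#2.

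The fitted knockdown difference was -0.41 ± 0.27 (SE) for TET1 16705381 (95% interval -1.11 to 0.29), 0.024 ± 0.40 for TET1 16715048 (-1.0 to 1.05) and -0.11 ± 0.17 for TET2 (-0.54 to 0.32). The limma adjusted p was 0.782, 0.997 and 0.919. None of the 28946 clusters passed in limma (0%), and 2294 (7.93%) had an unadjusted p under 0.05. Without the array labelled shTET1#2 the differences were -0.67 for 16705381, -0.44 for 16715048 and -0.0040 for TET2, and without shTET1#1 they were -0.15, 0.49 and -0.22. With the vector as baseline they were -0.63, -0.13 and 0.083, so 16715048 and TET2 turned in sign.

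Genes with a pattern like TET1 were sought by the gap between the lowest of the 4 plasmid arrays and the highest of the other 4. The gap was 5.60 for TET1 16715048, the widest of the 28946 clusters, and 0.91 for TET1 16705381, which ranked 52. The next named genes were CPEB4 (1.14), a regulator of translation through the poly(A) tail, MIR7-3HG (1.12), the host gene of a microRNA, and HMMR (1.02), a hyaluronan receptor that also works at the mitotic spindle. CPEB4 lay between 7.42 and 8.07 on the plasmid arrays, against 5.85 to 6.28 on the others. No other named gene came near the step of 16715048, and these genes also stood apart from the 3 shRNA clones, which also differ from them in handling.

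**Figure D3:**
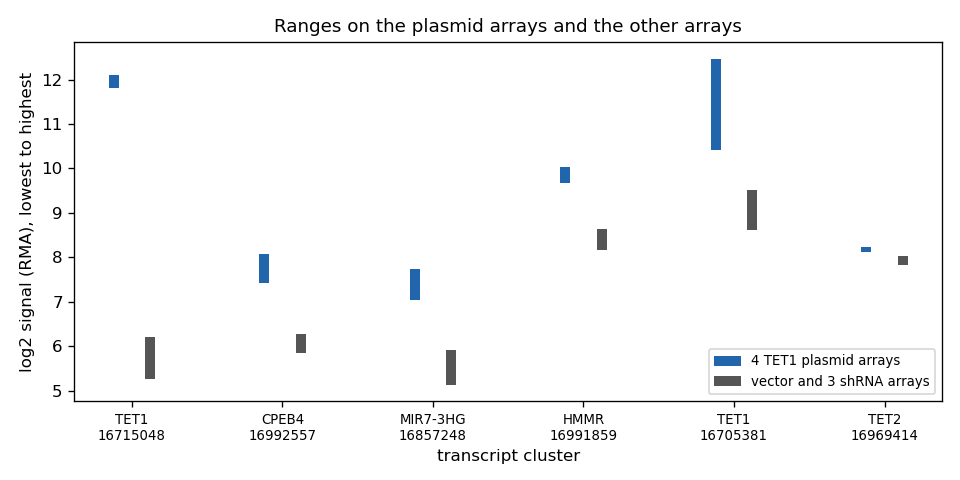
Lowest to highest log2 signal (y axis) on the 4 TET1 plasmid arrays (blue) and on the vector and 3 shRNA arrays (grey) for the TET clusters and the 3 named genes with the next widest gap (x axis). The ranges of TET1 16715048 are 5.60 apart and those of TET2 0.079 apart.

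For TET2, likeness was the Pearson correlation over the 8 arrays, among 7288 named clusters with a range of at least 0.5. The closest were MBD1 (r = 0.991, rho = 0.946), a protein that binds methylated CpG, CGRRF1 (0.986 and 0.958), a ring finger protein, and CCNC (0.984 and 0.952), the cyclin of the Mediator kinase module. MBD1 had 7.68 in shTET1#1 and 7.36 in shTET1#2, against 7.68 in the control clone. It had 7.95 and 7.90 with wild-type CD and FL and 7.77 and 7.73 with the mutants, against 7.40 with the vector. Without the 2 arrays farthest from the TET2 median, shTET1#2 and the vector, r was 0.957, 0.931 and 0.925. Among the candidates 130 had r over 0.9, and all points share the same 8 arrays and their normalization, so the values describe these arrays and no more.

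The genes that work with TET proteins were read from a list of 56, of which 38 had a named cluster and 37 passed the filter. None passed the limma threshold in any of the 4 contrasts, in either direction, where the background is 0% of all clusters in each. The median of the 37 was 0.041 for plasmids minus vector, -0.15 for FL minus CD, 0.016 for wild-type minus mutant and -0.080 for knockdown. The medians of all clusters were 0.0014, 0.0031, 0.0027 and -0.010 in the same contrasts.

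Among partners and regulators of TET proteins, 15 members were measured. CXXC5, a CXXC protein known to act on TET2, had the largest knockdown difference in size of the whole list, at -0.63 ± 0.16 (SE, limma adjusted p = 0.536), with 7.17 in shTET1#1 and 7.27 in shTET1#2, against 7.85 in the control clone. The vector stood at 7.36 for CXXC5, nearer the shTET1 clones than the control clone. CUL4A, a scaffold of the ubiquitin ligase that modifies TET proteins, had the largest FL minus CD difference in size, at -0.53 ± 0.13 (limma adjusted p = 0.209). For CUL4A the vector (6.90) lay between TET1-FL (7.04) and mTET1-FL (6.74), and below TET1-CD (7.52) and mTET1-CD (7.32). OGT, the sugar transferase that binds TET proteins, stood at -0.49 ± 0.17 for plasmids minus vector (limma adjusted p = 0.305), a gene picked after its value was seen.

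Among readers and repair enzymes, 11 members were measured. The glycosylase NEIL1 stood at -0.60 ± 0.16 (SE) for plasmids minus vector (limma adjusted p = 0.237). NEIL1 had 8.06 with TET1-CD, 8.03 with TET1-FL, 7.98 with mTET1-CD and 8.08 with mTET1-FL, against 8.64 with the vector. The 3 shRNA arrays lay at 7.98 to 8.26, so the vector was the highest of the 8 arrays for NEIL1. TDG, which removes the last oxidation products, stood at 0.51 ± 0.14 for plasmids minus vector (limma adjusted p = 0.24). It was picked after its value was seen. TDG had 8.56 with TET1-CD, 8.31 with TET1-FL, 8.54 with mTET1-CD and 8.24 with mTET1-FL, against 7.90 with the vector, while the 3 shRNA arrays lay at 8.51 to 8.91. For TDG the vector was thus the lowest of the 8 arrays. APEX1, the endonuclease of base excision repair, stood at -0.41 for FL minus CD (limma adjusted p = 0.277) and was also picked after its value was seen. For APEX1 the vector (10.39) lay between TET1-FL (10.31) and mTET1-FL (10.46), and below TET1-CD (10.76) and mTET1-CD (10.84).

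Among genes of 2-oxoglutarate metabolism, 6 of 18 listed had a named cluster. D2HGDH, which removes D-2-hydroxyglutarate, an inhibitor of TET enzymes, had the largest plasmid difference in size of the list, at -0.71 ± 0.13 (SE, limma adjusted p = 0.188). D2HGDH has 2 named clusters, and only the one with the highest mean signal over the arrays was read. D2HGDH had 6.37 with TET1-CD, 6.20 with TET1-FL, 6.56 with mTET1-CD and 6.46 with mTET1-FL, against 7.10 with the vector, and the 3 shRNA arrays lay at 6.56 to 6.73. The vector was thus the highest of the 8 arrays for D2HGDH. GLUD1, which makes 2-oxoglutarate from glutamate, stood at 0.35 for FL minus CD (limma adjusted p = 0.338), picked after its value was seen. For GLUD1 the vector (7.97) lay between TET1-FL (8.02) and mTET1-FL (7.83), and above TET1-CD and mTET1-CD (7.57 each).

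The 5 methylation writers, DNMT1, DNMT3A, DNMT3B, DNMT3L and UHRF1, were all measured. UHRF1, which brings DNMT1 to newly copied DNA, stood at -0.49 ± 0.15 (SE) for FL minus CD and at -0.42 ± 0.19 for knockdown (limma adjusted p = 0.287 and 0.682). UHRF1 had 9.15 in shTET1#1 and 9.13 in shTET1#2, against 9.56 in the control clone. The vector, at 8.65, lay below both shTET1 clones. It also lay between the FL arrays of UHRF1 (8.84 with TET1-FL and 8.48 with mTET1-FL) and below both CD arrays (9.11 with TET1-CD and 9.19 with mTET1-CD). DNMT3B, a de novo methyltransferase, stood at 0.28 for wild-type minus mutant (limma adjusted p = 1). DNMT3L, its cofactor, stood at -0.31 there (limma adjusted p = 1), but it lay below the median on all 4 plasmid arrays, where background may limit the value and its place in the list. All 5 writers, DNMT3L with that limit, had an FL minus CD difference below 0, between -0.49 and -0.20, and no call. A difference below 0 was also found for 26 of the 37 list genes and for 49.3% of all clusters. An FL minus CD difference does not tell which of the constructs departs from the vector.

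**Figure D4:**
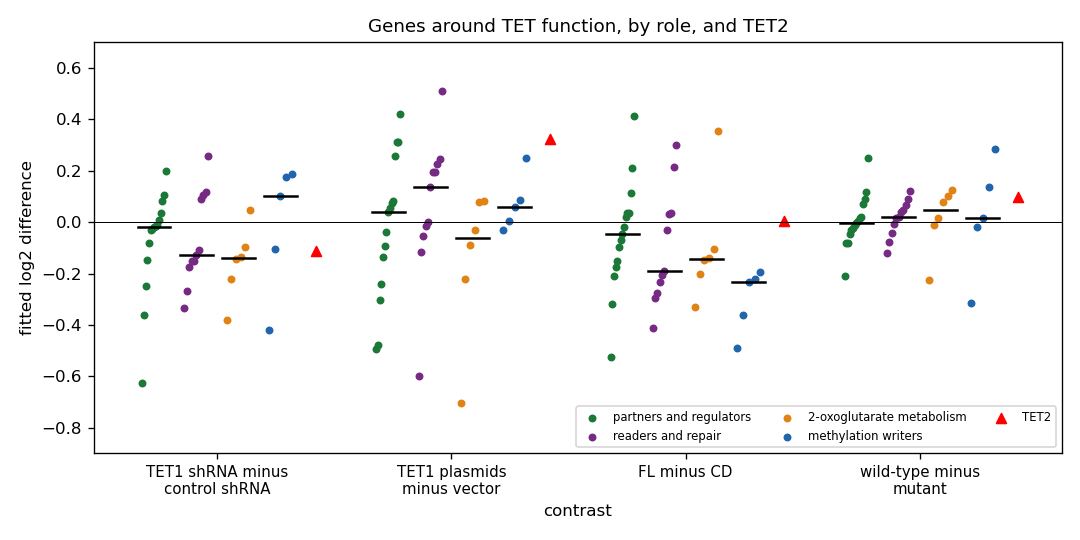
Fitted log2 difference (y axis) of the 37 measured genes around TET function, grouped by role (1 point a gene, line at the median of the role), and of TET2 in the 4 contrasts (x axis). The 5 methylation writers lie between -0.49 and -0.20 in FL minus CD, and no gene shown passed the limma threshold.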

How the data were processed

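The authors deposited log2 values, and per the submitters' processing notes they used Affymetrix Expression Console 1.3.1 with RMA named beside it, a method of background correction, normalization between arrays and probe summary. Per the labels, 100 ng of total RNA was amplified and biotin-labelled. What each tool did is not given in the sources used here, nor is a genome build. Of 53981 rows, 364 had no value and 53617 were used. The platform annotation named 16098 of them with 1 symbol each and 37519 with none, and all 16098 were found by gene number in RefSeq (GRCh38.p14), which changed 0 symbols. The filter on low signal asked for a value above the array's median on 2 or more of the 8 arrays (28946 clusters kept).

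A single model over the 8 arrays was fitted with limma 3.58.1 in R 4.3.3 (lmFit, eBayes; prior SD 0.154, 2.89 prior and 2 residual degrees of freedom). It had a level for each shRNA kind, the vector and each plasmid kind (wild-type or mutant), and a construct term (plus 0.5 for FL, minus 0.5 for CD). The spread comes from the 2 shTET1 clones and from wild-type minus mutant in CD against FL, and no label names separate cultures, so p-values measure only the spread between these samples. Adjusted p-values are Benjamini-Hochberg values over all kept clusters, two-sided. Differences with 1 array a side have no test, and at least 2-fold counts as called. The number of arrays limits the precision. The fit was tested on simulated data.

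The TET clusters are named, with the 2 list genes of the largest difference in each contrast and the 3 genes most like a TET cluster. OGT, TDG, APEX1 and GLUD1 fall outside this rule and were added after their values were seen. Members and lists were chosen with earlier results of these data known. The alternatives tried were no filter, median centring, cyclic loess, 1 cluster per symbol (with both TET1 clusters read), leaving out arrays, the plasmid and vector arrays alone, and the other baseline.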

Additional observations from a re-analysis of the deposited data

Results flagged for a closer look

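The wild-type minus mutant difference of TET1 cluster 16715048 had opposite signs in the constructs, at 0.071 with CD and -0.11 with FL on the log2 scale. Each is a difference between 1 array and 1 array, and the difference between the constructs was not tested. Both are smaller than 1 SD of a difference between 2 arrays for this cluster (0.46). That SD also draws on the 2 shTET1 clones, whose values lie near the array median, so it may not describe the spread of the plasmid arrays. No group had enough arrays to look for an array that stands apart within it.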

How the results depend on the processing

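No paired analysis was possible because each group but shTET1 had 1 array, so the groups share fewer than 2 replicate numbers. The plasmid differences of both TET1 clusters and of TET2, the FL minus CD differences of both TET1 clusters, the knockdown difference of TET1 16705381 and the wild-type minus mutant differences of TET1 16705381 and TET2 kept their sign in every alternative run. Over these alternatives the plasmid difference lay between 6.05 and 6.25 for TET1 16715048, between 1.93 and 2.24 for TET1 16705381 and between 0.13 and 0.33 for TET2. Adjusted limma p-values for TET1 16715048 lay between 0.0428 and 0.753.

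Centring each array on its median turned TET1 16715048 in knockdown (-0.023) and TET2 in FL minus CD (-0.019), and brought 1 cluster past the threshold for plasmids, TET1 16715048. With 1 cluster per gene symbol 1 cluster passed for plasmids and 5 for knockdown, with fewer clusters tested. Both TET1 clusters had a value in that setting. TET1 16715048 in knockdown stood at -0.44 without the array labelled shTET1#2, at 0.49 without shTET1#1 and at -0.13 against the vector, and TET2 in knockdown at 0.083 against the vector. TET1 16715048 in wild-type minus mutant stood at 0.071 without TET1-FL and likewise without mTET1-FL, where only CD carries the contrast, and at -0.11 without either CD array. Leaving out single arrays left 0 clusters past the threshold in each contrast. For the other turns of sign the cause was not tested. All 84 single-array differences of the TET clusters under median centring and cyclic loess moved by less than 1 SD. By Spearman correlation 0 of the 3 genes most like TET2 were the same. Signals of 16715048 near the array median limit its values without plasmid.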
